A study of Mus musculus with 36 samples.

Results

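The Hox cluster genes were examined in RNA-Seq libraries of mouse brain, from heterozygous Chd8+/S62X animals (HT) and their wild-type controls (WT). They were taken as the protein-coding genes whose symbol is Hox, a cluster letter from a to d and a number. GENCODE M21, an annotation of the mouse genome build GRCm38, holds 39 such genes, and 25 of them had a row among the 29799 genes of the deposited table. These 25 were 7 of the 11 genes of cluster A (chromosome 6, 52155590 to 52260880), 9 of the 10 of cluster B (chromosome 11, 96194316 to 96368256), 3 of the 9 of cluster C (chromosome 15, 102921103 to 103036852) and 6 of the 9 of cluster D (chromosome 2, 74668310 to 74765142). The other 14 (Hoxa9, Hoxa10, Hoxa11, Hoxa13, Hoxb13, Hoxc8 to Hoxc13, Hoxd10, Hoxd11 and Hoxd12) were not analysed here, so the caudal end of the code was read from Hoxb8, Hoxd8, Hoxb9, Hoxd9 and Hoxd13 alone.

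The 36 libraries came from C57BL/6 mice in 12 groups of 3 mice each, male or female, HT or WT, at postnatal day 0 (P0), 25 (P25) or 80 (P80), all labelled whole brain and none treated. HT mice carried 1 copy of the S62X allele, a truncating human mutation in the N-terminal part of Chd8, which codes for a chromatin remodeler, and WT mice carried none. The allele is in the germline and so not limited to a cell type, and the sources used here do not describe where the brain was cut from the spinal cord. The oldest mice are P80 in titles, age labels and the paper, and P56 in a description field. The authors' value is a normalized estimate of the fragments of a gene, and it summed to between 31872449 and 38154000 per library (median 35036256). Each value was divided by a factor of its gene and library, so whole fragment counts were not recovered and the depth of each library cannot be read from the values.

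Hox genes code for homeodomain transcription factors that give cells along the body axis their position. Within each cluster they lie in the order in which they are expressed from head to tail, so genes of low paralog number reach furthest forward into the hindbrain, and genes of high paralog number stay in the spinal cord. The forebrain and midbrain lie in front of the Hox domain and normally express almost none of it, while the caudal hindbrain keeps Hox expression into adult life. Each Hox protein binds DNA with partner proteins of the PBX and MEIS families, and retinoic acid switches on the anterior genes of each cluster in the embryo.

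Promoters of a rostral, an intermediate and a caudal member are shown, since the results turn on how far along this order each library reaches. The bases before the RefSeq start site were read on the gene's strand (GRCm38.p6), 250 for each gene. Capitals mark matches on either strand to TGATNNAT (a site bound by PBX and HOX proteins together), AGGTCA (a half-site of retinoic acid receptors) or TATAAA (the TATA box), and in the genes shown no match overlaps another. Hoxa2 reads chr6:52164832-52165081 on the minus strand, Hoxb4 reads chr11:96318017-96318266 and Hoxb8 reads chr11:96281655-96281904, both on the plus strand.
Hoxa2: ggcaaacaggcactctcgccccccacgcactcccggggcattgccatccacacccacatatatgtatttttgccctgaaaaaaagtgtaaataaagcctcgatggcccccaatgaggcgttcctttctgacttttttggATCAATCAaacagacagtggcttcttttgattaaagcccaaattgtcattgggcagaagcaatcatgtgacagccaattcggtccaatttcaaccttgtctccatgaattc
Hoxb4: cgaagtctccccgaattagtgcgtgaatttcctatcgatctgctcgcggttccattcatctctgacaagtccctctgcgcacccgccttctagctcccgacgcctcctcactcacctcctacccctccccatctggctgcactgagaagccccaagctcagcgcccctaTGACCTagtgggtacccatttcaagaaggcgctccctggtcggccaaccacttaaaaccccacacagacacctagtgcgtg
Hoxb8: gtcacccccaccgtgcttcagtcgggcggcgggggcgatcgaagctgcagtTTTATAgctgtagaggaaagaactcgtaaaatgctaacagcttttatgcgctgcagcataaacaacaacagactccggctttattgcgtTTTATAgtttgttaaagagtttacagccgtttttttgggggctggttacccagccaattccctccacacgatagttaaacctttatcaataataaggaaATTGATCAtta
TGATNNAT was found in 3 of the 15 promoters that the reference gave for genes of the table (Hoxa2, Hoxb1 and Hoxb8) and in 7.68% of all 32851 promoters. AGGTCA was found in 5 of the 15 (Hoxb4, Hoxc4, Hoxd3, Hoxd4 and Hoxd8) and in 14.0% of all, and TATAAA in 3 of the 15 (Hoxb8, Hoxd4 and Hoxd13) and in 12.4% of all. These are matches of letters in a short window and were not tested as binding sites.

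At P0 the libraries did not hold the same part of the Hox code. In 5 of the 12 libraries no Hox gene reached a normalized value of 10 (male WT 2, male WT 3, female HT 2, female WT 1 and female WT 3). In male HT 1 the reach ended at paralog 4, with 6 Hox genes at 10 or more, and in male HT 2 at paralog 5, with 9 genes. Female HT 3 and female WT 2 also ended at paralog 5, with 13 genes each. Male HT 3, female HT 1 and male WT 1 reached paralog 8, through Hoxb8, with 18, 19 and 20 genes. No library had a Hox gene of paralog 9 or 13 at 10 or more. The reach depends on the threshold, and at 50 male HT 1 had no Hox gene, male HT 2 ended at paralog 3 and male HT 3 at paralog 6, so that 2 libraries reached paralog 8.

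**Figure D1:**
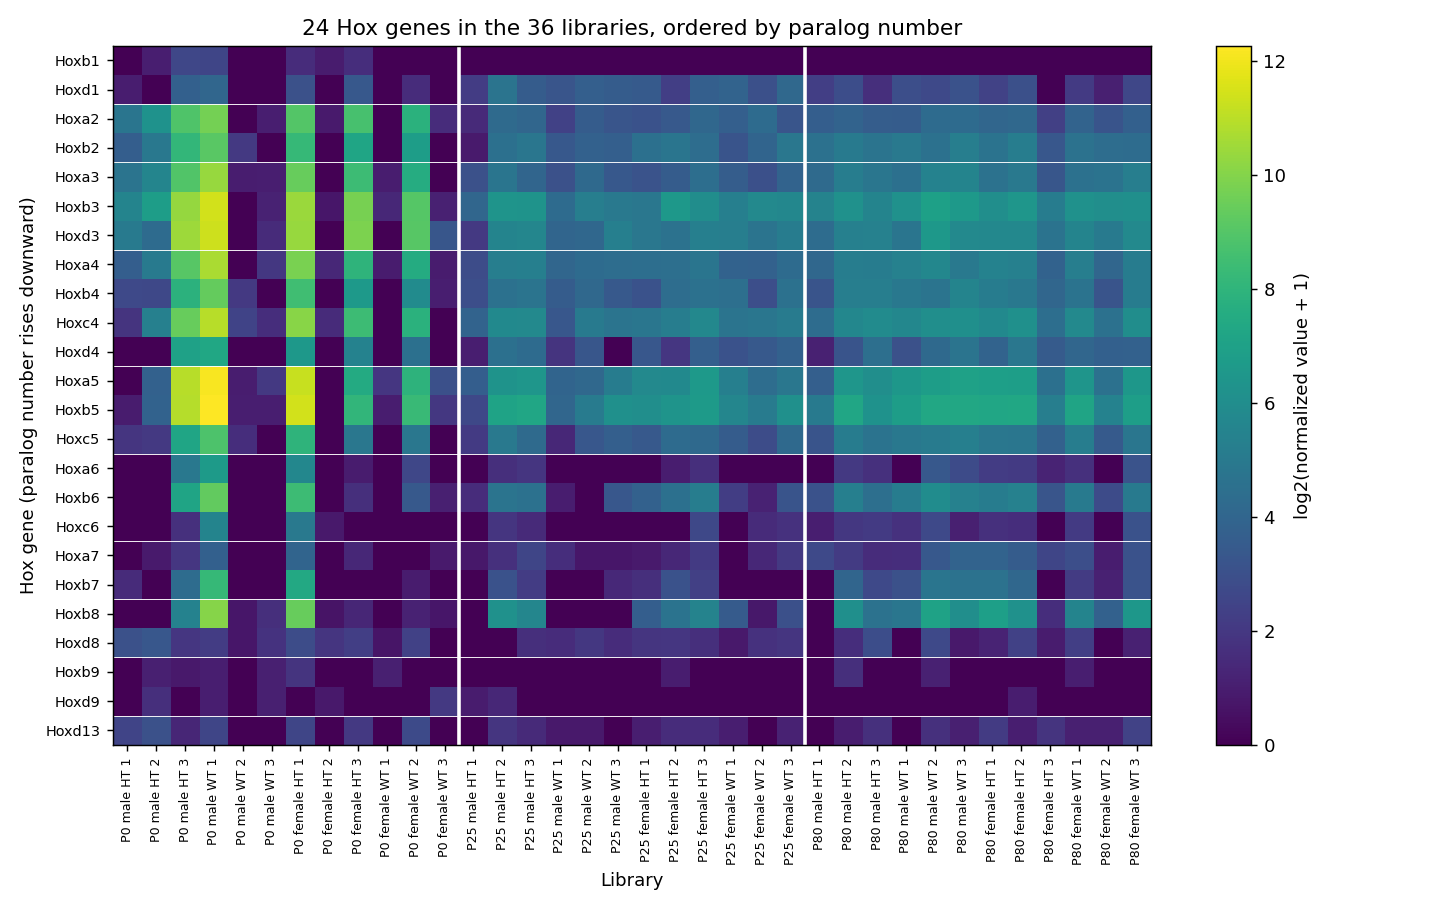
Level of 24 of the 25 Hox genes (rows, paralog number rising downward) in the 36 libraries (columns, white lines between ages), as the color of log2(normalized value + 1). At P0, 5 columns are dark over all rows and 3 are bright down to Hoxb8, while every column at P25 and P80 holds low to intermediate levels.

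The summed value of the 25 genes at P0 ranged from 9.01 to 24773. It was 24773 in male WT 1, 13455 in female HT 1 and 9874 in male HT 3. It was 3955 in female HT 3, 2723 in female WT 2, 417 in male HT 2 and 183 in male HT 1. The remaining libraries gave 30.8 (female WT 3), 21.2 (male WT 3), 17.1 (male WT 2), 11.6 (female HT 2) and 9.01 (female WT 1), sums of values under 10 whose order was not read.

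The sets of Hox genes at 10 or more were nearly nested. Ordered by size, each set was contained in the next, except that Hoxd1 reached 10 in male HT 3 and not in female HT 1, so that 17 of its 18 genes were shared. Not every gene in front of Hoxb8 was at 10 where Hoxb8 was, since Hoxa7 was 2.88 in male HT 3 and Hoxb1 was under 10 in every library. Paralog groups 5 to 8 made up 7.07% and 9.23% of the summed value per kb of transcript in male HT 1 and male HT 2, 12.4% in female HT 3 and 22.7% in female WT 2. The share was 44.0% in male HT 3, 50.7% in male WT 1 and 52.4% in female HT 1. The highest gene per kb was Hoxb3 in male HT 1, male HT 2, female HT 3 and female WT 2, Hoxa5 in male HT 3, and Hoxb5 in female HT 1 and male WT 1.

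**Figure D2:**
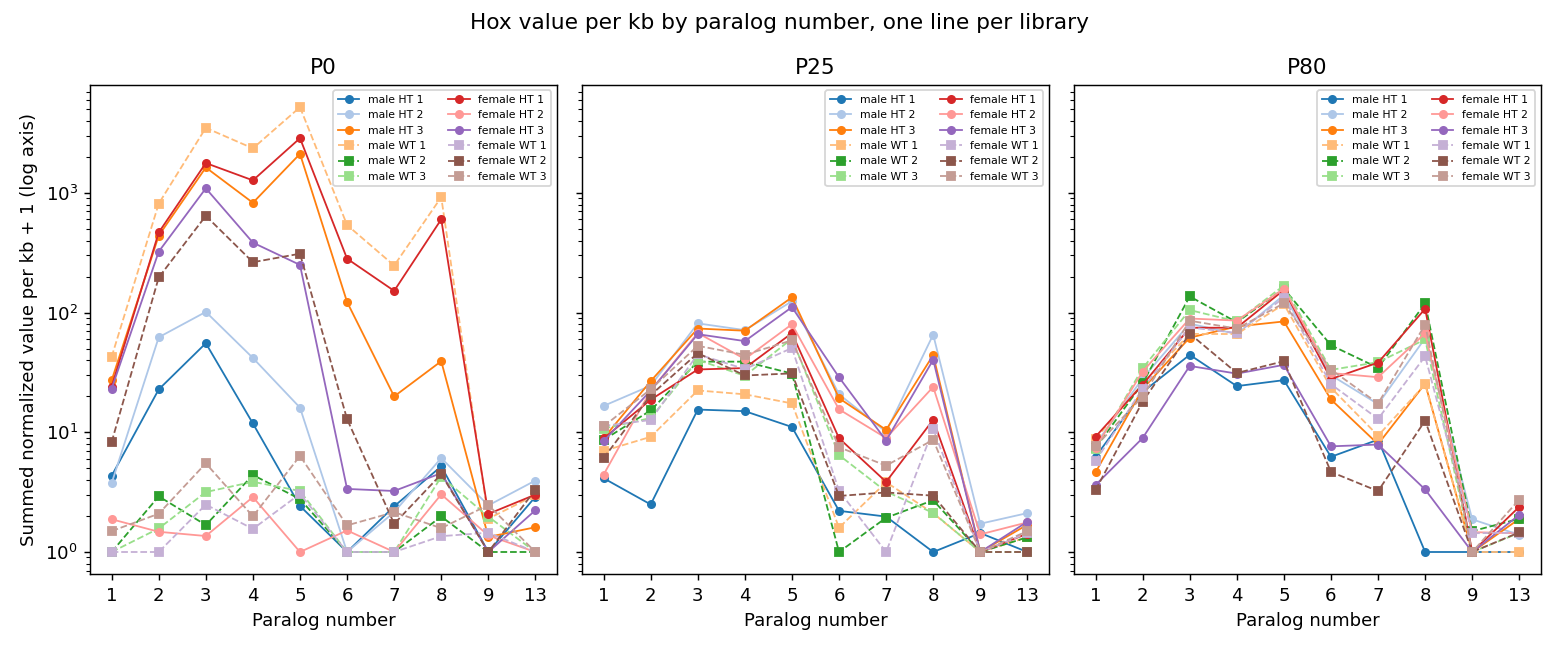
Summed normalized value per kb plus 1 (log axis) against paralog number, 1 line per library (circles and full lines, HT; squares and broken lines, WT), for P0, P25 and P80. The P0 lines leave the bottom of the plot at different paralog numbers, and those of P25 and P80 lie closer together, with their widest spread at paralogs 6 to 8.

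Among the rostral members, Hoxa2, which sets the identity of the second pharyngeal arch and the hindbrain segments above it, was the highest of its group per kb. Its value was 827 in male WT 1, 499 in female HT 1, 472 in male HT 3, 411 in female HT 3, 226 in female WT 2, 76.4 in male HT 2 and 26.1 in male HT 1, and at most 1.93 in the other libraries. Hoxb1, a marker of a single hindbrain segment in the embryo, stayed at or below 5.10 in every library.

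Hoxb3, the highest of group 3 per kb, reached 2733 in male WT 1, 1370 in female HT 1, 1279 in male HT 3, 874 in female HT 3 and 518 in female WT 2. It was 114 in male HT 2, 44.7 in male HT 1 and at most 1.56 in the other 5 libraries, so the libraries with and without hindbrain markers did not overlap in Hoxb3. Hoxa4, the highest of group 4 per kb, ran from 0 to 1688 (median 21.4). Reads of Hoxb3 and Hoxb2 cannot be told apart from those of the antisense gene Hoxb3os where their exons overlap, since the library kit does not mark strand. The annotation also gives shared exons for Hoxb5 with Hoxb5os, for Hoxa2 with Gm28308, for Hoxa3 with Gm28308, Gm29430, 5730596B20Rik, Hoxaas2 and Hoxaas3, and for Hoxa4 with Gm29430. The same holds for Hoxa7 with Hoxaas3, for Hoxc5 with Hoxc10, for Hoxd3 with Hoxd4 and Haglr, and for both of these Hoxd genes with Gm28230 and Hoxd3os1. The values of all these members are uncertain to that extent.

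Hoxb5, the most abundant Hox gene per kb over the 36 libraries, separated the P0 libraries further. It was 4949 in male WT 1, 2795 in female HT 1 and 1933 in male HT 3. It was 322 in female WT 2, 270 in female HT 3, 13.3 in male HT 2 and 0.907 in male HT 1, so Hoxb5 was under 10 in male HT 1 as in the 5 libraries without any Hox gene at 10. Hoxb6 reached 644, 336 and 143 in male WT 1, female HT 1 and male HT 3, and Hoxb7 reached 296, 169 and 19.3. In no other P0 library did either gene reach 10.

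Hoxb8, the most caudal member with an appreciable level, was 1047 in male WT 1, 681 in female HT 1 and 41.8 in male HT 3. It was at most 2.10 in the other 9 libraries. Male HT 3 therefore stood between, with Hoxb5 near the level of female HT 1 and Hoxb8 far below it. Hoxd8, Hoxd13, Hoxd9 and Hoxb9 stayed under 10 in every P0 library, with highest values of 8.95, 7.34, 3.14 and 2.62, too low to order the libraries by.

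The region markers moved with the Hox genes. The summed value of 10 pons and medulla markers (the most abundant was Slc6a5, the glycine transporter of inhibitory hindbrain neurons) was 10113 in male WT 1, 7886 in male HT 3, 7579 in female HT 3, 7565 in female HT 1, 6110 in female WT 2, 3993 in male HT 2 and 2994 in male HT 1. It was between 30.1 and 161 in the 5 libraries without a Hox gene at 10. In those 5 libraries the 15 telencephalon markers summed to between 68888 and 89716, and in the other 7 to between 5399 and 9491. The label whole brain was thus not borne out by the markers in the P0 libraries, since 5 of them almost lacked hindbrain and cerebellar markers and the others held little telencephalic RNA.

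Equal hindbrain marker levels did not go with equal Hox levels. Slc6a5 was 4202 in female HT 3 and 4337 in male HT 3, yet Hoxb5 was 270 in the former and 1933 in the latter. The 10 midbrain and cerebellum markers summed to 13803 in male HT 1 and 11592 in male HT 2, with En2 at 2201 and 1478, while male WT 1, the library with the highest Hox level, had 5506 and an En2 of 75.1. In bulk RNA, fewer cells of a region and less RNA per cell cannot be told apart.

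**Figure D3:**
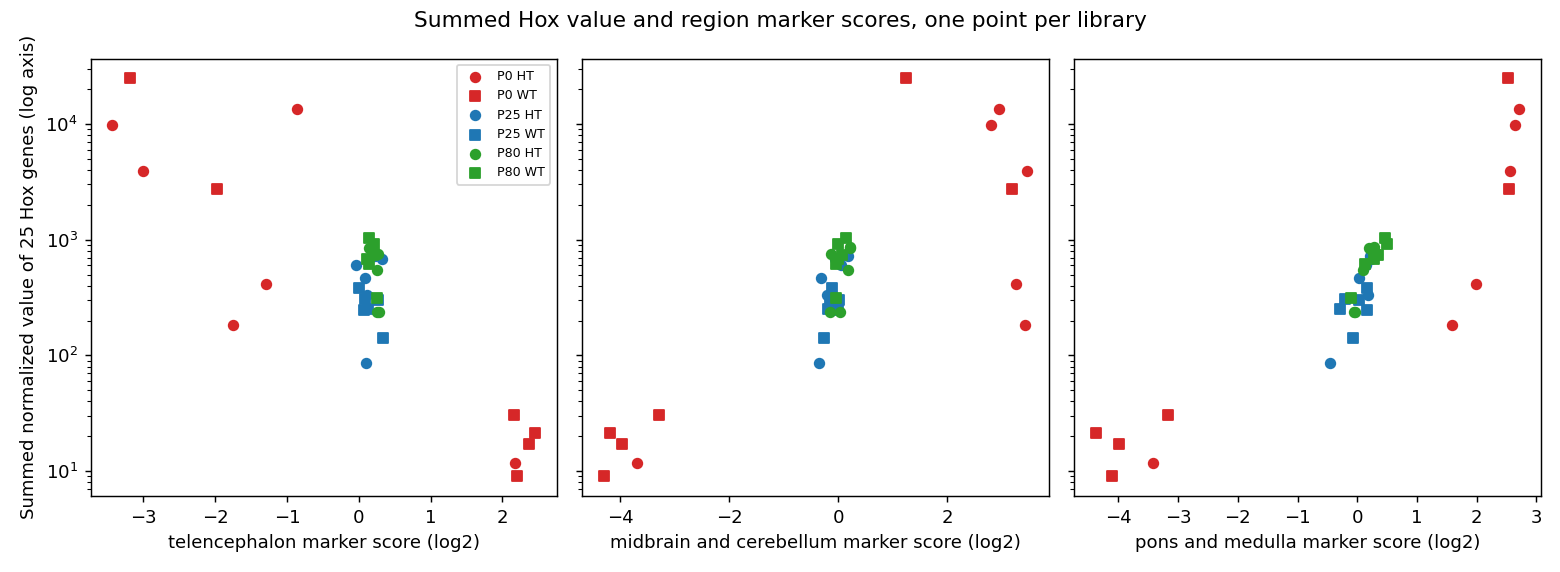
Summed normalized value of the 25 Hox genes (log axis) against the telencephalon, midbrain and cerebellum, and pons and medulla marker scores (mean log2 deviation of the markers from their mean over the 36 libraries), 1 point per library. The 5 P0 libraries with summed Hox values up to 30.8 lie at high telencephalon and low hindbrain scores, and the P25 and P80 libraries lie between the P0 extremes on all 3 axes.

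Markers of tissue next to the brain were measured beside them. The 9 peripheral neuron markers were all measured, with none at 0 in any P0 library, and their most abundant gene was Prph, an intermediate filament of peripheral and some hindbrain neurons. The list summed to 4931 in male WT 1, 4880 in male HT 3, 3174 in female HT 1, 3125 in female HT 3, 3080 in female WT 2, 1973 in male HT 2 and 1614 in male HT 1, and to between 949.5 and 1650 in the other 5. In those 5 the sum was mostly Isl1, which the forebrain expresses too (778 to 1478), and Prph was at 27.8 to 48.9, against 348 to 2146 in the other 7. The nociceptor channel Scn10a was 279 in male HT 3 and at most 60.5 elsewhere at P0. The 8 muscle markers summed to between 166 and 553 and the 7 cartilage markers to between 496 and 1441, with Myod1 and Myog, which define muscle, at or below 11.7. The 8 meninges and fibroblast markers (the most abundant was Pdgfra) summed to 34524, 32766 and 30259 in male HT 3, male WT 1 and female HT 1, to between 13707 and 24227 in the other 4 libraries with a Hox gene at 10, and to between 7288 and 17910 in the 5 without. The part of adjoining tissue in the Hox levels was not tested.

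The 6 measured noncoding genes of the Hox clusters were also high in the libraries with high Hox levels. Haglr, the most abundant, was 252 in male WT 1, 181 in male HT 3, 131 in female HT 1, 99.7 in female HT 3, 52.0 in female WT 2, 10.03 in male HT 2 and 5.98 in male HT 1, and 0 in the other 5. Male HT 3 thus lay above female HT 1 here and below it in the summed Hox value. The sum over the 6 genes was 631 in male WT 1 and 0 in female WT 1 and female WT 3. Several of these genes share exons with Hox genes on the opposite strand, so they are not an independent measure.

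At P25 every library held Hox transcripts at low levels. The summed value was 86.7 at the lowest, 320 at the median and 722 at the highest. All 12 libraries had Hoxa5 at 10 or more, 6 of them reached paralog 8 and 6 ended at paralog 5. At P80 the sum was 237 at the lowest, 709.7 at the median and 1036 at the highest, and 10 of 12 libraries reached paralog 8. The median over the 25 genes of the SD of log2(value + 1) was 3.34 at P0, 0.79 at P25 and 0.75 at P80. The highest summed value was 8.33 times the lowest at P25 and 4.37 times at P80, while no such ratio is given for P0, where the lowest sums are made of values under 10.

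The spread that remained at P25 and P80 was widest in the caudal members. Hoxb3 lay between 15.6 and 92.4 at P25 (median 44.4) and between 34.4 and 124 at P80 (median 70.3). Hoxb8 lay between 0 and 73.6 at P25 (median 8.70), with 4 libraries at 0, and between 0 and 131 at P80 (median 55.9), with 1 library at 0. The P80 libraries with the lowest summed values, male HT 1 (237), female HT 3 (239) and female WT 2 (313), had Hoxb8 at 0, 2.06 and 13.1 and the lowest pons and medulla scores of that age (-0.04, -0.06 and -0.11, against a median of 0.24). The lowest library at P25, male HT 1, likewise had the lowest score (-0.45, against a median of 0.09).

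Cluster B held the largest median share of the Hox level at P25 and P80, a difference from P0 that was not tested. Its share of the summed value per kb was 46.1% at the median of the P25 libraries (33.7% to 61.0%) and 53.0% at P80 (43.9% to 58.5%). Cluster A held 28.9% and 28.8%, cluster C 10.2% and 9.52%, and cluster D 14.2% and 8.42%. These shares are over the measured members alone, which are fewest in cluster C. At P0 the share of cluster B was 37.2% at the median (20.2% to 48.5%). Both ends of this range are libraries without a Hox gene at 10, and among those with one it ran from 35.0% to 46.5%. In the libraries that reached paralog 8 it was 46.5% (female HT 1), 45.6% (male WT 1) and 40.3% (male HT 3), near the P25 median.

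Among the Hox genes with a mean of at least 10, no difference between P25 and P0 exceeded the spread of the libraries. In limma on log2(value + 1), with sex and genotype as covariates, 16 members had a mean of at least 10 and were tested, and 0 had an adjusted p under 0.05 in either direction. Of all 18502 genes tested, 39.8% were higher and 40.3% lower at P25. No member had an unadjusted p under 0.05 either. The median log2 fold change of the 16 was -0.11, and its sign was not stable, with a range from -0.64 to 0.63 over left-out libraries and values of 0.47 and -0.72 with pseudocounts of 0.1 and 10. The standard errors were between 0.65 and 1.37, as for Hoxa2 with a log2 fold change of -1.48 (standard error 1.09, adjusted p = 0.211) and Hoxb5 with 0.62 (standard error 1.37, adjusted p = 0.684). With library values that differ this much at P0, a change of a few fold was not detectable.

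Between P25 and P80, 7 of the 14 members tested rose and 0 fell, while 29.5% of the 18187 genes tested were higher and 27.9% lower. Hoxb8 rose by 2.20 on the log2 scale (standard error 0.84, limma adjusted p = 0.0286) and Hoxb6 by 1.73 (standard error 0.51, adjusted p = 0.00545). Hoxa3 rose by 1.09 (standard error 0.24, adjusted p = 0.000307) and Hoxc5 by 1.09 (standard error 0.34, adjusted p = 0.00789). Hoxb4 rose by 0.72, Hoxa4 by 0.65 and Hoxb3 by 0.64 (adjusted p = 0.0368, 0.0257 and 0.0366). The log2 fold change was above 0 in the other 7 members too, from 0.34 for Hoxa2 to 0.93 for Hoxb5, with adjusted p between 0.0526 and 0.314. Of these 7, Hoxd4 (0.87) averaged under the minimum mean of 10 at P25. It was tested only through the P80 libraries, where it is higher, so its sign was favoured by the filter. The median of the 14 was 0.79, against 0.01 over all genes tested. Markers of other tissues moved between these ages too. All 6 choroid plexus markers tested rose (median 0.63, the most abundant being Ttr at 0.52), all 6 blood markers fell (median -1.13), 4 of 6 cartilage and 3 of 5 muscle markers fell, 3 of 9 peripheral neuron markers rose, and of 8 meninges and fibroblast markers 3 rose and 4 fell. Of 5 pituitary markers tested 1 rose (Prl, by 3.82, limma adjusted p = 0.0151), and the list summed to between 139 and 5720 at P25 and to between 135 and 65014 at P80. The part of these tissues in the Hox values was not tested. The P25 libraries are shared with the comparison with P0. The count was 4 without P25 male HT 1, P25 male WT 1 or P80 male WT 3, and 11 to 13 without P25 male HT 2, P25 male HT 3, P80 male HT 1, P80 female HT 3 or P80 female WT 2.

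**Figure D4:**
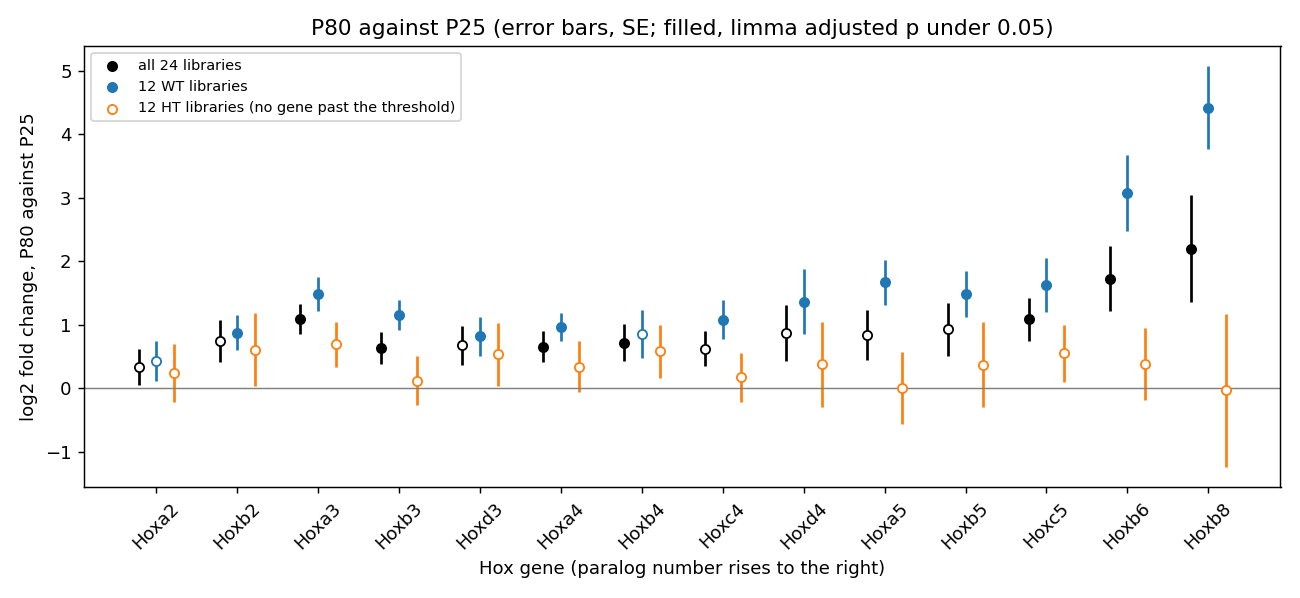
Log2 fold change of P80 against P25 with its standard error for the 14 tested Hox genes, in all 24 libraries and in the 12 WT and the 12 HT libraries alone (filled symbols, limma adjusted p under 0.05). The WT values lie above the HT values in each gene, most widely for Hoxb6 and Hoxb8.

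The rise passed the threshold in the WT libraries and not in the HT libraries. With the 12 WT libraries alone 12 of 14 members rose, against 21.5% of all genes tested, and Hoxb8 rose by 4.42 (standard error 0.65). Hoxb8, Hoxb6, Hoxc5 and Hoxd4 averaged under the minimum mean of 10 in the P25 WT libraries. They entered this fit only through the P80 libraries, where they are higher, so their part in the count was favoured by the filter. With the 12 HT libraries alone 0 of 14 members had an adjusted p under 0.05 in limma (0 at an unadjusted p under 0.05), against 20.7% of all genes higher, and Hoxb8 had a log2 fold change of -0.03 (standard error 1.20). The difference itself was tested as an age by genotype interaction, chosen after the data were seen. It passed an adjusted p of 0.05 in 0 of the 14 members and in 0% of the 18187 genes, and at an unadjusted p under 0.05 in 4 members (Hoxa5, Hoxb3, Hoxb6 and Hoxb8) and 552 genes. So the age effect was not shown to differ between genotypes.

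The rise was smaller once the region was in the model, a covariate also chosen after the data were seen. With the region score (telencephalon minus pons and medulla) as a covariate, 3 members rose (Hoxa3, Hoxb6 and Hoxc5, median of the 14 log2 fold changes 0.44), against 28.4% of all genes. With the pons and medulla score alone 1 member rose (Hoxa3, by 0.69, median 0.21), against 27.2% of all genes. Of the 9 pons and medulla markers tested between P25 and P80, 3 rose (among them Lmx1b by 0.39 and Slc6a5 by 0.39) and 0 fell. In that fit, without a region covariate, 29.5% of all genes were higher and 27.9% lower. The share of hindbrain tissue in the libraries and the level of Hox RNA in its cells cannot be told apart here.

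Of the Hox cofactors of the PBX, MEIS and PKNOX families, 9 of 9 were tested, and 7 were lower and 1 (Pbx2, by 0.48) higher at P25 than at P0. The fall was 2.05 on the log2 scale for Pbx3, 1.74 for Meis2, the most abundant, and 1.05 for Meis1. Between P25 and P80, 5 of the 9 rose and 0 fell, by at most 0.29 (Meis2). These genes are expressed in the forebrain as well, and at P0 they summed to between 26318 and 48534 in every library.

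Genes that act before the Hox genes in the hindbrain or carry the retinoic acid signal changed in both directions. Of the hindbrain list of 10 genes, 7 had a row and 4 were tested. From P0 to P25, 2 fell, among them Fgf3 (by 2.55), and 1 rose, which was Egr2 (by 1.58). Egr2 also marks myelinating glia outside the brain. From P25 to P80 all 4 rose, among them Egr2 by 0.80 and Fgf3 by 0.47. Of 14 retinoic acid genes tested, 2 rose and 8 fell from P0 to P25. Aldh1a1, which makes retinoic acid and was the most abundant, rose by 4.97, and the binding protein Crabp1, the degrading enzyme Cyp26b1 and the synthesizing enzyme Aldh1a2 fell by 3.56, 1.96 and 1.53. From P25 to P80, 9 rose, among them the retinol receptor Stra6 (0.87), Aldh1a2 (0.53), the nuclear receptors Rxra (0.35) and Rarg (0.32), and 1 fell (Cyp26b1, by 0.31).

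Polycomb proteins keep Hox genes silent and trithorax proteins keep them active. Of 22 such genes, 16 fell and 5 rose from P0 to P25. Cbx2, Pcgf2 and Rnf2 of Polycomb complex 1 fell by 2.23, 2.06 and 1.89, and Cbx7 of the same complex rose by 1.83. Kmt2a, the trithorax methyltransferase and the most abundant of the list, fell by 1.46. From P25 to P80, 8 rose and 8 fell, among them Cbx7 (0.97), Kmt2a (0.62) and Ezh1 (0.43), which rose, and Ezh2, which fell by 0.54. Of the noncoding genes of the Hox clusters 3 were tested in each comparison, and 0 changed in either, with Haglr at 0.998 (standard error 0.92) and -0.25 (standard error 0.17). All lists here are read against the percentages of all genes given above for each comparison.

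Chd8 was examined before the genotypes were compared, as the mutated gene. Its value counts transcripts of both alleles. It was higher, not lower, in HT than in WT libraries, at P25 between 5905 and 6747 in the 6 HT and between 3623 and 4707 in the 6 WT libraries, and at P80 between 4582 and 5149 and between 3375 and 3862. At P0 the genotypes overlapped, with 7936 to 9913 in HT and 4733 to 9547 in WT libraries, the lowest value being that of male WT 1. After region the log2 fold change of Chd8 was 0.39 at P0 (limma adjusted p = 0.483), 0.62 at P25 (adjusted p = 0.000223) and 0.40 at P80 (adjusted p = 0.00114).

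At P0 the genotypes differed in which regions their libraries held. A Hox gene at 10 or more was found in 3 of 3 male HT libraries, 1 of 3 male WT, 2 of 3 female HT and 1 of 3 female WT. In HT against WT males 0 of 17 members tested had a limma adjusted p under 0.05, as had 0% of all genes, and the median log2 fold change was 0.54, which ran from -1.41 (without male HT 3) to 4.21 (without male WT 1) over left-out libraries and was -0.10 with a pseudocount of 10 and -0.07 with quantile normalization. In females it was 0 of 16, with 0.00547% of all genes, and a median of 2.72, which ran from 1.34 (without female HT 1) to 5.23 (without female HT 2). No member had an unadjusted p under 0.05 in either sex with all libraries. But without male WT 1 the test called 5 members higher in HT males, beside 1765 genes higher and 1845 lower of all 18321. The WT males left, male WT 2 and male WT 3, held no Hox gene at 10. The members were thus tested only through the HT libraries, where they are high, and nothing is read from this count. In females 13 of 17 members had an unadjusted limma p under 0.05 without female HT 2, beside 1619 of all 18256 genes. Without female WT 2 it was 1 of 17, and in both fits 0 passed an adjusted p of 0.05. Female WT 1 and female WT 3, the WT females left without female WT 2, likewise held no Hox gene at 10. Standard errors were large, such as 3.54 for Hoxb5 in males. The groups overlapped in all of the members tested, while 12.1% of all genes in males and 7.35% in females had 3 HT and 3 WT libraries that did not overlap.

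After region, the median of the Hox genes at P0 went from above to below 0 in both sexes together and in males, and stayed above 0 in females. In the 12 P0 libraries with sex in the model, all 17 members tested had a log2 fold change above 0 without the region score (median 1.66), and all 17 had one below 0 with it (median -1.45). With the score 0 of 17 passed an adjusted p of 0.05 in limma and 0 an unadjusted p of 0.05, against 0% of all 18338 genes. Hoxb3 was at 3.26 without and -1.02 with it (standard errors 2.30 and 0.70). Over left-out libraries the median with the score ran from -2.53 (without female WT 2, with 4 of 17 at an unadjusted p under 0.05) to -0.41 (without male WT 1, with 3 of 16 members above 0), and without female HT 1 it was -2.06, with 8 of 17 at an unadjusted p under 0.05. In males alone 11 of 17 members were above 0 and 6 already below 0 without the score, and with it all 17 were below 0 (median -4.58), 17 at an unadjusted p under 0.05, as were 1203 of all 18375 genes, and 0 at an adjusted one, as were 7 of all. In females alone 16 of 16 were above 0 without the score and 13 of 16 with it (median 0.59), with 0 at an unadjusted p under 0.05. As region and genotype go together in these libraries, a genotype effect on Hox levels at P0 and the region held by a library cannot be told apart.

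**Figure D5:**
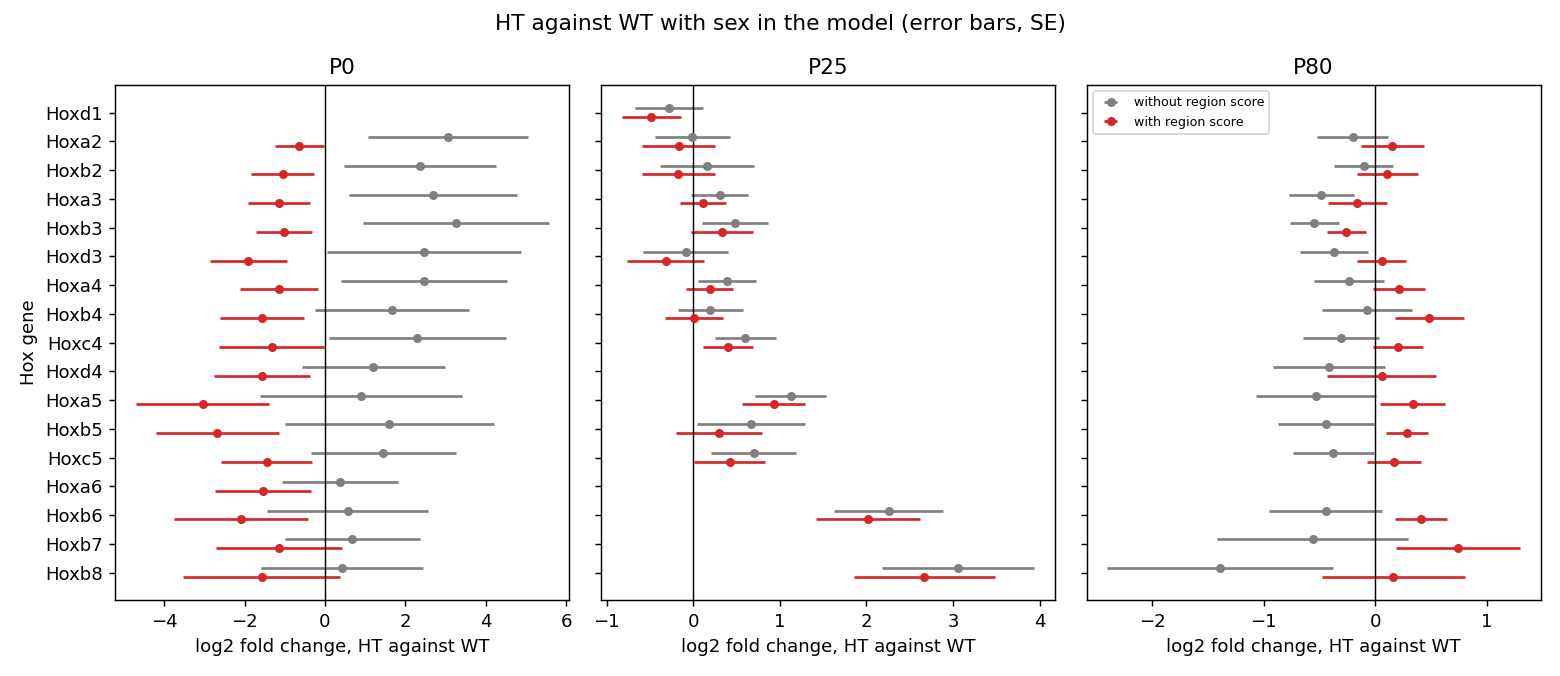
Log2 fold change of HT against WT with its standard error for the tested Hox genes at P0, P25 and P80 (16 of the 17 at P0), without (grey) and with (red) the region score as a covariate, sex being in both models. At P0 all 16 values shown move from above to below 0, and at P25 Hoxb6 and Hoxb8 stay near 2 and above. Both genes had a mean under 10 in the P25 WT libraries.

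At P25 the caudal members had positive log2 fold changes of HT against WT that did not pass the adjusted test. Hoxb8 stood at 0, 73.6 and 47.9 in the HT males, and all 3 WT males were at 0. The same HT males had pituitary marker sums of 149, 2161 and 5720, against 139, 526 and 260 in the WT males, and the part of this tissue in the Hox values was not tested. In females the 3 HT libraries held 11.7, 24.3 and 43.5 and the WT libraries 10.4, 0.723 and 6.96, so that the genotypes did not overlap, although their nearest values, 11.7 and 10.4, lay close together. In males 0 of 13 members tested had a limma adjusted p under 0.05 (1 at an unadjusted p under 0.05), against 0.0166% of all genes. Without male HT 1 it was 1 of 15 (13 unadjusted, median log2 fold change 1.47, from 0.58), beside 2 of all 18061 genes (1013 unadjusted). In females it was 0 of 14 (4 unadjusted), against 0% of all. The males' Hoxb8 had a log2 fold change of 3.94 (standard error 1.39) and the females' 2.17 (standard error 0.72). In both sexes Hoxb8 averaged under the minimum mean of 10 in WT, so it was tested only through the HT libraries, where it is high. In females 4 of the 14 tested members did not overlap (Hoxa4, Hoxa5, Hoxb6 and Hoxb8, all higher in HT), against 11.9% of all genes, and in males 0 of 13, against 8.55%. Of these 4, Hoxb6 (mean 4.39 in WT and 23.8 in HT females) and Hoxb8 were tested only through the HT libraries. The filter thus favoured this count, and nothing is read from it against the share of all genes.

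After region at P25, Hoxb8 and Hoxb6 had log2 fold changes of 2.67 (standard error 0.81, limma adjusted p = 0.656) and 2.02 (standard error 0.60, adjusted p = 0.656). Hoxb8 and Hoxb6 (means of 3.31 in WT males and 4.39 in WT females) averaged under the minimum mean of 10 in WT. Both were tested only through the HT libraries, where they are high, and nothing further is read from their fold changes. None of the 14 members passed the threshold, as 0.0441% of all genes did, 3 had an unadjusted p under 0.05 (Hoxa5, Hoxb6 and Hoxb8), and the median was 0.24 (0.43 without the region score). Over left-out libraries this median ran from 0.02, with 7 of 14 members below 0 (without male WT 2), to 0.62 (without male HT 1).

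At P80 the log2 fold changes of HT against WT males lay below 0. The 3 HT males had Hoxa5 at 12.2, 86.2 and 66.7, and the WT males had it at 89.3, 113 and 128. For Hoxb8 the HT males gave 0, 67.3 and 23.8, against 27.6, 131 and 66.4 for WT males. All 15 members tested had a log2 fold change below 0 in males (median -0.76), 0 passed an adjusted p of 0.05 in limma (4 unadjusted), against 0.0166% of all genes, and 1, Hoxa5, did not overlap, against 9.54% of all. Of the 15, Hoxb7 (log2 fold change -1.91) averaged under the minimum mean of 10 in the HT males. It was tested only through the WT males, where it is high, so its sign was favoured by the filter. Without male HT 1 the median was -0.27, and with the region score in males alone 12 of 15 members were above 0 (median 0.26). In females the median of 14 members was 0.01, 0 passed (0 unadjusted), against 0.0385% of all genes, and 0 did not overlap, against 17.6%. This median ran from -0.32 (without female WT 2) to 0.54 (without female HT 3, with 14 of 15 members above 0). Female HT 3 had the highest blood, meninges and muscle sums of the P80 libraries (20970, 7165 and 435) and a pituitary sum of 26627, next to 65014 in female HT 2 and at most 3534 in the others, and the part of these tissues in the Hox values was not tested. Hoxb8 was at -2.41 (standard error 1.20) in males and -0.37 (standard error 1.20) in females. After region the median of 15 members was 0.16, from -0.42 without the score (-0.39 with a score of telencephalon minus midbrain and cerebellum), and 0 passed (0 unadjusted), against 0.022% of all genes. Over left-out libraries this median ran from 0.10 (without male HT 3) to 0.44 (without female WT 2, with 15 of 15 members above 0).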

How the data were processed

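RNA was sequenced from the brains of 36 mice with a kit that does not mark strand (TruSeq RNA Sample Prep Kit v2). The authors estimated transcript abundance with Salmon 1.1.0 on GRCm38, and the deposited signal is the estimated count per gene normalized in DESeq2 1.26.0 (versions, with R 3.6.2, as in the submitters' processing notes). The annotation release and the row filter are not given in the sources used here. Every column was matched to a sample by its name (0 unmatched). Hox genes, marker lists and tests were chosen with earlier results of these data known. Values were taken as log2(value + 1), so fold changes of low genes are understated, and genes whose mean over the fitted libraries reached 10 were tested with limma 3.58.1 in R 4.3.3, with Benjamini-Hochberg adjustment over all genes tested and a threshold of 0.05. Age fits held sex and genotype, and fits after region held sex and the region score. Per kb values used the median length of the coding transcripts. Of each paralog group the gene with the highest mean per kb was named with its values, of the members every gene past the threshold, and of each list the most abundant gene and up to 4 with the largest changes. Other genes were named after their values were seen. Replicates are separate mice. Replicate numbers paired the libraries of P25 males only (correlations of deviations 0.290, 0.148 and 0.111). The fits were tested on simulated data, and no result of that test is given or used here. Other filters, pseudocounts, scalings, weights, covariates and left-out libraries were tried. Tables and figures used numpy 2.4.6, pandas 2.3.3 and matplotlib 3.10.9. Some genes of these lists are not reported here by name.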

Additional observations from a re-analysis of the deposited data

Results flagged for a closer look

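The HT and WT values of Hoxa5 did not overlap in a pair of groups, in opposite directions, and neither difference passed the adjusted test. Of all genes tested, 11.9% did not overlap in P25 females and 9.54% in P80 males. In P25 females all 3 HT libraries (53.7, 55.2 and 95.6) lay above all 3 WT libraries (38.5, 19.8 and 28.2), with a log2 fold change of 1.21 (limma adjusted p = 0.827). In P80 males all 3 HT libraries (12.2, 86.2 and 66.7) lay below all 3 WT libraries (89.3, 113 and 128), with a log2 fold change of -1.37 (limma adjusted p = 0.9999). The nearest values of these males, 86.2 and 89.3, lay close together. After region, over both sexes, the log2 fold change was 0.93 at P25 (limma adjusted p = 0.812) and 0.33 at P80 (limma adjusted p = 0.853). The difference between these groups was not tested. The age by genotype interaction over both sexes gave -1.66 for Hoxa5 (limma adjusted p = 0.9997).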

How the results depend on the processing

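The P25 against P0 counts of 0 Hox genes became 1 higher with no filter (9364 of all 29795 genes) or a minimum mean of 1 (8991 of 25499). They became 2 lower with no filter (9705 of 29795) or array quality weights (7485 of 18502). With a pseudocount of 10 (7526 of 18502) or HT libraries only (6730 of 18524) 1 was lower. There Hoxa2 turned to 0.052 in WT libraries only and Hoxb5 to -0.37 with a pseudocount of 10. Of the P80 against P25 counts, the 7 higher of 14 became 11 of 22 with a minimum mean of 1, beside 5522 of all 24661 genes. With array quality weights it was 11 of 14 and with the replicate block 12 of 14, beside 5471 and 5161 of all 18187. With WT libraries only it was 12 of 14 and with HT libraries only 0 of 14, beside 21.5% and 20.7% of all genes. In males it was 4 of 14 and in females 1 of 14, beside 4249 of 18126 and 4431 of 18227. By covariates chosen after the data were seen it was 3 with the region score and 1 with the pons and medulla score, beside 28.4% and 27.2%. The count ran from 4 to 13 over left-out libraries. The 0 lower became 1 with no filter or a minimum mean of 1, beside 5630 of 29706 and 5557 of 24661 genes lower. Hoxa2 turned to -0.072 in females and -0.049 with the pons and medulla score, Hoxb8 to -0.027 in HT libraries only, and Hoxb8 of HT against WT P80 males to 1.33 with the region score. The Hox genes higher in HT P0 males were 4 with array quality weights (beside 2373 genes higher and 2657 lower of 18375) and 0 to 5 over left-out libraries (5 beside 1765 higher and 1845 lower of 18321), and in P25 males 0 to 1. The 5 were called without male WT 1, where they were tested only through the HT libraries. The replicate block left the count of Hox genes in P25 males at 0, with 6 instead of 1 at an unadjusted p under 0.05, and 5 genes instead of 3 in all. At a threshold of 1 no P0 library lacked a Hox gene (0), and 11 P0 and 11 P25 libraries reached paralog 8 or above. At 50, 6 P0, 4 P25 and 2 P80 libraries had none, and 2, 1 and 6 reached paralog 8. Per kb, 2 P25 libraries had none with either gene length, and with merged exons 3 reached paralog 8. A minimum mean of 100 left no Hox gene to test between P25 and P80, in P25 males, in P25 females or in the P25 fit after region. Causes were not tested. The values do not give the depth of each library, so no limit of detection is given and the precision of values under 10 is not known.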

Other observations

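Hoxd1, the most rostral gene of cluster D, had a mean too low to be tested between the ages. With a minimum mean of 1 its log2 fold change was 2.06 from P0 to P25 (limma adjusted p = 0.00093) and -1.24 from P25 to P80 (limma adjusted p = 0.00186), while the 14 Hox genes tested at the higher minimum had values above 0 from P25 to P80. The gene was singled out after its values were seen.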
